A study of Rattus norvegicus with 12 samples.

Results

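The carnitine shuttle moves long-chain fatty acids into the mitochondrial matrix, and malonyl-CoA sets its pace. The 7 genes described here were chosen by name for these roles: Cpt1a, Cpt1b, Cpt2 and Slc25a20 of the shuttle, and Mlycd, Acaca and Acacb of malonyl-CoA turnover. Earlier results of these data were known when they were chosen. They are 7 of the 14217 genes that the array's annotation names with a single symbol. All 7 were represented, by 9 probe sets, and 8 of these passed the filter on dim probe sets, so that every gene could be tested. The ninth, Acaca probe set 1387538_at, stayed between 15.3 and 21.3 intensity units on the 12 arrays and was not tested.

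Male Sprague-Dawley rats were made diabetic with a single injection of streptozotocin at 65 mg/kg, a toxin that kills the insulin-producing beta cells, or received citrate buffer alone. After 10 weeks without control of blood sugar the left anterior descending coronary artery was tied off, and the free wall of the left ventricle remote from the infarct was collected at 1, 7, 14, 28 and 56 days, or after a sham operation. Each of the 12 arrays carried RNA pooled from 3 rats. There were 6 time points with 1 array per condition at each, and none was repeated. Diabetic rats were labelled 18 weeks old at sham and day 1, 19 at day 7, 20 at day 14, 22 at day 28 and 26 at day 56, and non-diabetic rats had the same ages except 22 weeks at day 56. The model is one of insulin deficiency, and the tissue was whole myocardium rather than isolated cells.

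Carnitine palmitoyltransferase 1, on the outer mitochondrial membrane, joins long-chain acyl groups to carnitine, the step that commits them to oxidation. Its muscle form is encoded by Cpt1b and its liver form by Cpt1a, and the adult heart relies mainly on the muscle form. The carrier Slc25a20 exchanges acylcarnitine for free carnitine across the inner membrane, and Cpt2 hands the acyl group back to coenzyme A inside. Malonyl-CoA blocks carnitine palmitoyltransferase 1, the muscle form more strongly than the liver form. It is made by the acetyl-CoA carboxylases Acaca, which is cytosolic, and Acacb, which sits at the mitochondrial membrane, and it is removed by malonyl-CoA decarboxylase, encoded by Mlycd. In heart muscle several of these genes are known targets of PPAR alpha, a receptor activated by fatty acids.

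Promoters of 5 of the 7 genes were found in the RefSeq-based table for build GRCr8. Those of Cpt1a, Mlycd and Acacb are shown because these genes carried the largest diabetes or time differences below. Each is the 250 bases before the annotated start, 5′ to 3′ on the gene's own strand. Capitals mark matches on either strand to GGGCGG (the GC box), CCAAT (the CCAAT box) or AGGTCA (the half-site of nuclear receptors). The Cpt1a sequence is chr1:209995910-209996159 on the plus strand, the Mlycd sequence chr19:64356332-64356581 on the plus strand, and the Acacb sequence chr12:48138215-48138464 on the minus strand.
Cpt1a: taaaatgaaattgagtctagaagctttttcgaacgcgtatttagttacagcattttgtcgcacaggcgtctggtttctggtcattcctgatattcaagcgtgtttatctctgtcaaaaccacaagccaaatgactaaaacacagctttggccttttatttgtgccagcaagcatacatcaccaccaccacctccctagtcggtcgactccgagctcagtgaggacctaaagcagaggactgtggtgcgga
Mlycd: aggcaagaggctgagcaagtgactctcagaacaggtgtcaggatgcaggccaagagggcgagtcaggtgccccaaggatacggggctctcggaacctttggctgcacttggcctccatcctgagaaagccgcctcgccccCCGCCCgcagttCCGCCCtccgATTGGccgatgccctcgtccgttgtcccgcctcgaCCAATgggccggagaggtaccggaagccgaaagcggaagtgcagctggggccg
Acacb: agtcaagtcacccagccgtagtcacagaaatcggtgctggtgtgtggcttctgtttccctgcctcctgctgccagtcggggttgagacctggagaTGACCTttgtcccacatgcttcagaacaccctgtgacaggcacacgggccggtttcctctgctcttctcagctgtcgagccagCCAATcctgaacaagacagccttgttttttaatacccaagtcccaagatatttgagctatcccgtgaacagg

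The Cpt1a window is 45.6% G and C and held none of the motifs searched. The Mlycd window is 65.2% G and C, with 2 GC boxes and 2 CCAAT boxes, and the Acacb window is 53.6% G and C, with 1 half-site and 1 CCAAT box. Of the promoters not printed, that of Cpt2 is 66.8% G and C with 3 GC boxes, and that of Slc25a20 is 56.4% G and C with 2 GC boxes. The median over the 33469 promoters of the table is 51.2%. A GC box was present in 30.5% of all these promoters, a CCAAT box in 34% and a half-site in 14.1%. The full PPAR element searched, a direct repeat of the half-site with any 1 base between (DR1), matched in 0.0508% of promoters. It matched in none of the 5, nor did the E-box CACGTG, present in 5.59% of all promoters, or the TATA box TATAAA, present in 12.9%. The half-site lies within the full element, and the other motifs do not overlap it. A missing match says only that these letters are not in the window.

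The first question is whether diabetes changed the 7 genes in the remote myocardium. Values were compared on the scale of log2(intensity + 16) in a model with time point and diabetes over all 12 arrays. The spread behind each test is how far the diabetes difference moved among the 6 pairs of arrays, and says nothing of single rats. In limma this spread is drawn toward that of probe sets of like brightness. A fitted SE is therefore not that of the gene's own 6 pairs alone, which for Cpt1a had an SD of 0.56. At an adjusted p of 0.05 (limma, Benjamini-Hochberg over 18625 probe sets), 0 of the 7 genes passed, with adjusted p from 0.0779 to 0.893. At an unadjusted p of 0.05, 1 of 7 did, Cpt1a. Of all probe sets tested 70 passed, which is 0.376% (0.15% higher and 0.226% lower in diabetic hearts), and 10.6% had an unadjusted p under 0.05. The median difference of the 7 genes was 0.17 on the log2 scale, against -0.01 over the 10623 genes tested. In whole tissue, fewer cells of a type and less RNA per cell cannot be told apart.

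Cpt1a had the largest diabetes difference of the 7. Its probe set 1386946_at read 694 intensity units in diabetic sham hearts and 321, 372, 652, 656 and 670 at days 1, 7, 14, 28 and 56. In non-diabetic hearts it read 230 at sham and 319, 219, 288, 301 and 229 on the same days. Every diabetic array thus lay above every non-diabetic one, the closest being 321 in the diabetic heart and 319 in the non-diabetic heart, both of day 1. Such a separation over 12 arrays was seen in 0.123% of probe sets. The second Cpt1a probe set, 1367836_at, read 251, 97.8, 101, 227, 243 and 242 in diabetic hearts, in the order sham to day 56, and 83.1, 82.5, 71.2, 109, 101 and 95.1 in non-diabetic hearts. It too was higher in the diabetic heart at all 6 time points, but its groups overlapped, because the diabetic values of days 1 and 7, 97.8 and 101, lay below the highest non-diabetic one of 109.

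The fitted Cpt1a difference was 0.99 ± 0.20 on the log2 scale (SE), a ratio of 1.99, with an adjusted p of 0.0779 by limma. The second probe set gave 0.90 ± 0.18, also with an adjusted p of 0.0779. Both therefore missed the threshold narrowly, at ranks 95 and 94 of all probe sets. A two-sided exact sign-flip permutation test over the 6 pairs gave p = 0.03125 for the Cpt1a difference, the smallest p that 6 pairs allow, with the diabetic heart higher in 6 of 6. A higher value at all 6 time points was seen in 2.42% of probe sets.

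The size of the Cpt1a difference was uneven over time. It was 1.53 at sham, 0.01 at day 1, 0.72 at day 7, 1.13 at day 14, 1.09 at day 28 and 1.48 at day 56. The small differences of days 1 and 7 went with low diabetic values, 321 and 372, where the other 4 diabetic arrays read 652 to 694. Without the day 1 pair the fitted difference was 1.19 ± 0.17 with a limma adjusted p of 0.0200, where 0.397% of probe sets passed. On the 8 arrays without days 1 and 7 it was 1.31 ± 0.20 with a limma adjusted p of 0.0428, where 0.188% passed, and the lowest diabetic value of 652 stood against a highest non-diabetic value of 301. In the day 1 and day 7 pairs alone it was 0.37 ± 0.26 with a limma adjusted p of 0.999. The fits without these days leave out the smallest Cpt1a differences, which raises the fitted value by construction. With any other single pair left out Cpt1a did not pass, with limma adjusted p from 0.0983 without day 28 to 0.318 without day 56.

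The 4 arrays of days 1 and 7 also differed in a sign of RNA quality. Their 3′ beta-actin control probe set exceeded the 5′ one by 0.97 to 0.99 on the log2 scale, against 0.37 to 0.59 on the other 8 arrays. Within the day 1 and day 7 pairs the diabetic and non-diabetic arrays differed in this value by 0.0062 and 0.0063 only, so a covariate in a model that holds the time point cannot adjust for it. The part of RNA quality in the smaller difference of days 1 and 7 was not tested.

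**Figure D1:**
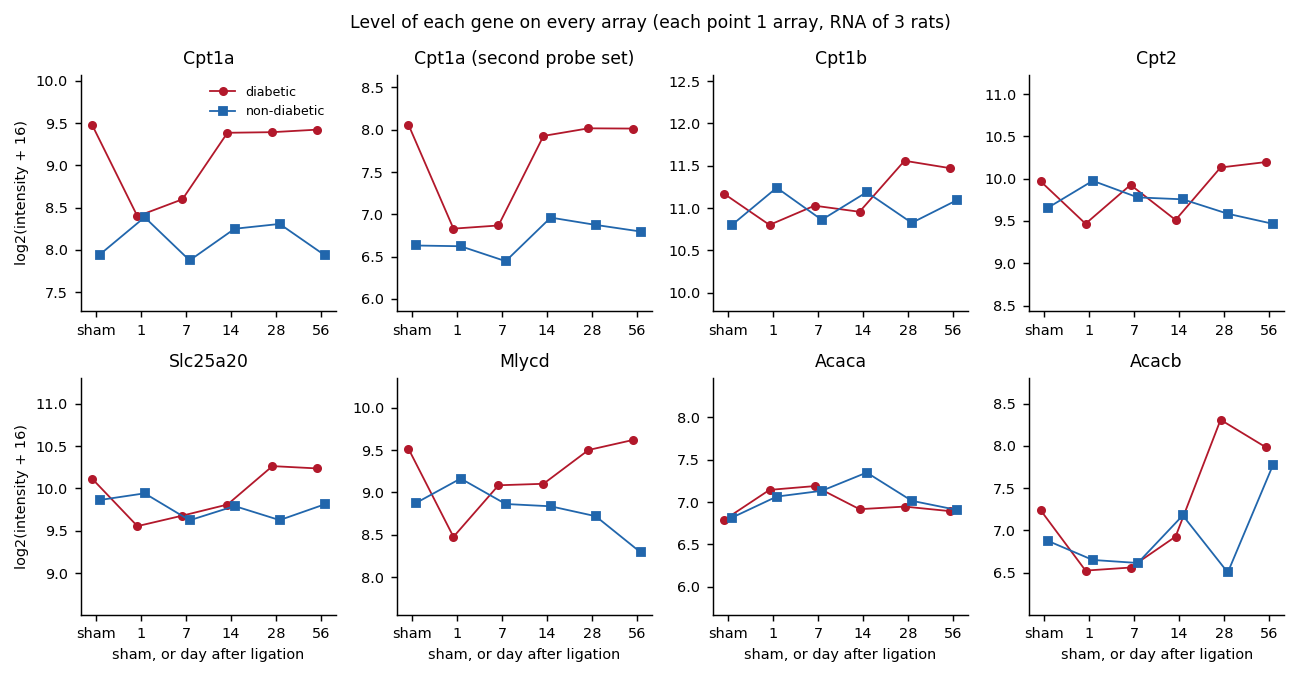
Level of each gene on every array as log2(intensity + 16), with sham and the days after ligation on the horizontal axis at equal steps. Red circles are diabetic arrays and blue squares non-diabetic arrays, each 1 pool of 3 rats, and every panel spans the same range on the log2 scale. The diabetic Cpt1a line lies above the non-diabetic one everywhere and meets it only at day 1, where the intensities are 321 and 319.

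Cpt1b, the muscle form, showed no such separation. Its probe set 1367742_at ranged over 1768 to 3002 intensity units in diabetic hearts, with a median of 2177, and over 1765 to 2403 in non-diabetic hearts, with a median of 2006. The difference was 0.37 at sham, -0.44 at day 1, 0.17 at day 7, -0.23 at day 14, 0.73 at day 28 and 0.38 at day 56. Fitted over all times it was 0.16 ± 0.15 with a limma adjusted p of 0.741. The groups overlapped, with the diabetic arrays of days 28 and 56, at 3002 and 2826, above every non-diabetic one, and the diabetic heart was higher in 4 of 6 pairs.

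The Cpt1a probe set could be set against the Cpt1b one within each array, which removes any scaling of the array as a whole. Cpt1a minus Cpt1b was -1.69, -2.40, -2.43, -1.57, -2.17 and -2.05 on the log2 scale in diabetic hearts from sham to day 56. In non-diabetic hearts it was -2.85, -2.85, -2.99, -2.94, -2.52 and -3.16. The diabetic value was the higher one at 6 of 6 time points, by 0.83 ± 0.43 on average (SD, n = 6 pairs), and the lowest diabetic value, -2.43, lay above the highest non-diabetic one, -2.52. With both Cpt1a probe sets averaged the gap was 0.78 ± 0.39 and still higher in 6 of 6 pairs, but the ranges then overlapped, at -3.30 to -2.30 in diabetic and -3.74 to -3.23 in non-diabetic hearts. Only the movement of this difference between arrays has a meaning, since the brightness of different probe sets does not give the ratio of their transcripts, and no test was made of it.

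Slc25a20, the carrier of the inner membrane, ranged over 736 to 1214 intensity units in diabetic hearts and over 773 to 968 in non-diabetic hearts (probe set 1398249_at). Its medians were 986 in diabetic and 877 in non-diabetic hearts. The difference was 0.25 at sham and -0.39, 0.06, 0.02, 0.64 and 0.42 from day 1 to day 56, and the fitted value of 0.17 ± 0.15 had a limma adjusted p of 0.733. The lowest and the highest array of this gene were both diabetic, those of day 1 and day 28.

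Cpt2, which re-forms acyl-CoA in the matrix, had its lowest pair difference at day 1 too. Its probe set 1386927_at ranged over 692 to 1157 intensity units in diabetic hearts, with a median of 972, and over 691 to 990 in non-diabetic hearts, with a median of 819. The difference was 0.31 at sham and -0.51, 0.15, -0.24, 0.55 and 0.73 from day 1 to day 56. The fitted value was 0.16 ± 0.17 with a limma adjusted p of 0.774. The diabetic arrays were lowest on day 1 and highest on day 56, at 692 and 1157, and the non-diabetic ones the other way round, at 990 on day 1 and 691 on day 56.

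Mlycd, whose product removes malonyl-CoA, had the next largest diabetes difference after Cpt1a. Its probe set 1367638_at read 717 intensity units in diabetic sham hearts and 340, 527, 534, 709 and 772 at days 1, 7, 14, 28 and 56. In non-diabetic hearts it read 453 at sham and 558, 450, 441, 405 and 297. The diabetic heart was higher at 5 of 6 time points, with day 1 as the exception, and the groups overlapped. The difference was 0.64 at sham, -0.69 at day 1, 0.22 at day 7, 0.27 at day 14, 0.78 at day 28 and 1.33 at day 56. Fitted over all times it was 0.43 ± 0.22 with a limma adjusted p of 0.531, and the exact sign-flip permutation test gave p = 0.1875.

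On the 8 arrays without days 1 and 7 the 4 diabetic Mlycd values, the lowest 534, lay above the 4 non-diabetic ones, the highest 453. The same separation held in 2.45% of probe sets, Cpt1a among them. The fitted Mlycd difference was then 0.76 ± 0.22 with a limma adjusted p of 0.229, so that it stayed short of the threshold. Days 1 and 7 held the smallest Mlycd differences, so leaving them out raises the fitted value by construction. In the day 1 and day 7 pairs alone it was -0.23 ± 0.28.

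The carboxylases that make malonyl-CoA had smaller fitted differences than Cpt1a and Mlycd. Acaca, probe set 1370893_at, ranged over 94.7 to 130 intensity units in diabetic hearts, with a median of 106, and over 96.5 to 147 in non-diabetic hearts, with a median of 116. Its fitted difference was -0.07 ± 0.13 with a limma adjusted p of 0.893, and 5 of the 6 time points lay within 0.08 of 0. Day 14 was the exception, at -0.43, with 105 in the diabetic and 147 in the non-diabetic heart. It was the only one of the 7 genes with a fitted difference below 0, and without the day 14 pair it was 0.0057.

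Acacb, the carboxylase at the mitochondrion, read 135 intensity units in diabetic sham hearts and 76.1, 78.4, 106, 301 and 237 at days 1, 7, 14, 28 and 56 (probe set 1369328_at). In non-diabetic hearts it read 102 at sham and 84.4, 82.0, 129, 74.7 and 202. The groups overlapped, and the gap was wide only at day 28, where the difference was 1.80. At the other times it was 0.36 at sham, -0.13 at day 1, -0.05 at day 7, -0.25 at day 14 and 0.22 at day 56. The fitted value was 0.33 ± 0.24 with a limma adjusted p of 0.668, and without the day 28 pair it was 0.03 ± 0.15.

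Markers of other cells differed at day 28 as well, though not at that time alone. At day 14 each fibroblast marker was higher in the diabetic heart, with Col3a1 at 5799 against 3802. The macrophage marker Lyz2 read 1021 in the diabetic and 382 in the non-diabetic heart at day 56. At day 28 the gaps went the other way. The summed intensity of the 10 fibroblast markers was then 8696 in the diabetic and 20131 in the non-diabetic heart. That of the 10 macrophage markers was 2961 in the diabetic and 7042 in the non-diabetic heart, and that of the 4 neutrophil markers on the array was 164 in the diabetic and 1122 in the non-diabetic heart. The day 28 pair also had the widest gap in the beta-actin value, 0.38 in the diabetic and 0.59 in the non-diabetic heart, where the other 5 pairs differed by 0.044 at most. With that value as a covariate the fitted Acacb difference was -0.12 ± 0.17, with a limma adjusted p of 0.875. Within pairs the covariate differed mainly at day 28, so this fit cannot tell RNA quality from anything else about that pair. The part of these cells and of RNA quality in the Acacb difference was not tested.

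**Figure D2:**
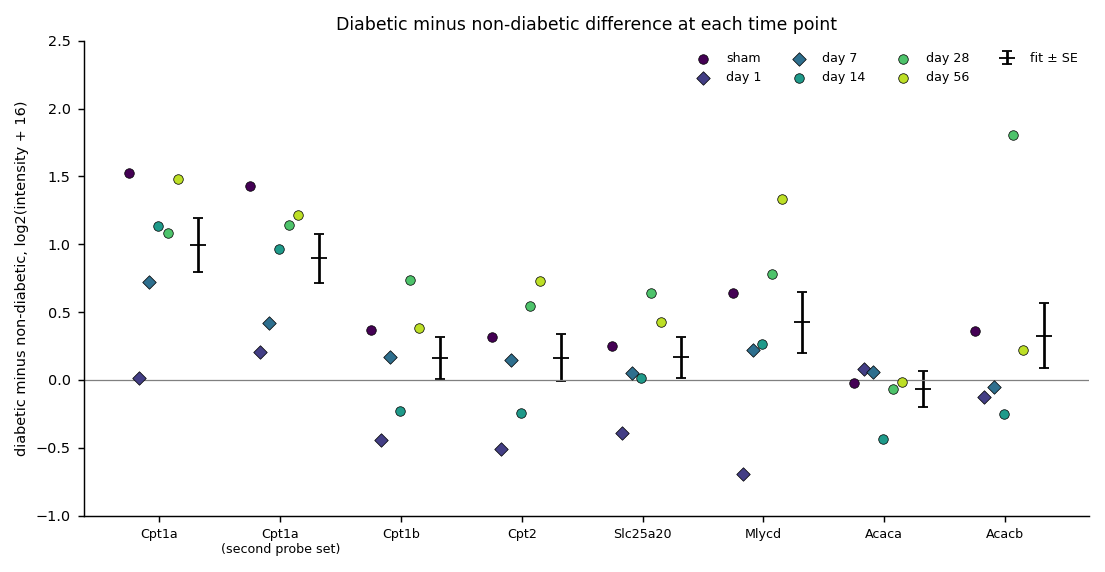
Diabetic minus non-diabetic difference of each gene at each time point, on the scale of log2(intensity + 16). Circles are sham and days 14, 28 and 56, diamonds are days 1 and 7, and the black bars are the fitted difference ± SE. The day 1 diamond is the lowest point for Cpt1a, Cpt1b, Cpt2, Slc25a20 and Mlycd, and the single high Acacb point is day 28 at 1.80.

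By time point, 6 of the 7 genes were higher in diabetic hearts at sham, 2 at day 1, 6 at day 7, 3 at day 14, 6 at day 28 and 6 at day 56. Over all 18625 probe sets the share higher in diabetic hearts was 45.7% at sham, 39% at day 1, 45.2% at day 7, 56.1% at day 14, 45.1% at day 28 and 69% at day 56. The median difference of the 7 genes was 0.36 at sham, -0.39 at day 1, 0.15 at day 7, -0.23 at day 14, 0.73 at day 28 and 0.42 at day 56. The 2 genes above 0 at day 1 were Acaca and Cpt1a.

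Whether the diabetes difference depends on ligation or on the time since can be asked of the same arrays. For the difference in ligated minus that in sham hearts, Cpt1a gave -0.64 ± 0.55, and the other 6 genes lay between -0.26 and -0.04. None of the 7 passed limma at an adjusted p of 0.05, nor did any at an unadjusted one, and over all probe sets 0 passed (0%), with 125 or 0.671% at an unadjusted p of 0.05. There is a single sham pair behind this comparison.

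Over the 5 days after ligation, the diabetes difference of 6 of the 7 genes had a positive slope on log2 of the day. Mlycd had the steepest, 0.33 ± 0.09 per doubling of the day, with an unadjusted p of 0.00368 by limma, followed by Cpt1a with 0.25 ± 0.09 and Cpt2 with 0.20 ± 0.09. The second Cpt1a probe set gave 0.19 ± 0.09 with an unadjusted p of 0.0519 by limma. Those of Cpt1b, Slc25a20 and Acacb were 0.16, 0.16 and 0.17, and that of Acaca was -0.03. After adjustment 0 of 7 passed, all with adjusted p of 0.9995, against 3 of 7 at an unadjusted p of 0.05. Over all probe sets 0 passed (0%), and 838 or 4.50% had an unadjusted p under 0.05. Without the day 1 pair the Mlycd slope was 0.38 ± 0.22, with an unadjusted p of 0.112 by limma. Without the day 56 pair, whose age labels differ, it was 0.29 ± 0.11, with an unadjusted p of 0.0312 by limma. The pairs of days 1 and 7 have the wider beta-actin difference, and the part of RNA quality in these slopes was not tested.

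A contrast of the diabetes difference on days 1 and 7 with that at the other times was chosen after the values above had been seen, and so describes them. It was -0.94 ± 0.34 for Cpt1a, -0.87 ± 0.30 for its second probe set and -0.99 ± 0.39 for Mlycd, and between -0.62 and -0.45 for Cpt1b, Cpt2, Slc25a20 and Acacb. Acaca gave 0.20. By limma 0 of 7 genes and 0 of all probe sets (0%) passed the adjusted threshold. At an unadjusted p of 0.05 there were 2 of 7 genes, Cpt1a and Mlycd, and 753 probe sets or 4.04%. Without the day 1 pair the Cpt1a contrast was -0.59 and that of Mlycd -0.53.

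The time course itself was followed by setting each day against sham over both conditions. By their representative probe sets 0 of the 7 genes passed limma on any day, adjusted or unadjusted, with the lowest adjusted p at 0.349. The second Cpt1a probe set alone reached an unadjusted p of 0.0493, at day 7, with a difference of -0.69 ± 0.31 and an adjusted p of 0.195. Over all probe sets 7.47% passed at day 1 and 7.65% at day 7, with 25.5% on either day at an unadjusted p of 0.05, while on days 14, 28 and 56 none did (0%), with 11.7%, 3.62% and 16.4% at an unadjusted p of 0.05. The widest fitted difference among the representative probe sets was that of Acacb at day 56, 0.82 ± 0.42 with a limma adjusted p of 0.349. Cpt1a at day 7 gave -0.47 ± 0.35, and Acacb at days 1 and 7 gave -0.47 ± 0.42 on both. The arrays of days 1 and 7 also had the wider beta-actin difference, 0.97 to 0.99 against 0.37 to 0.59 on the others, sham included. Time after ligation and RNA quality therefore cannot be told apart in the contrasts of these days with sham.

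The courses of the 2 conditions differed in their values. Cpt1a on days 1, 7, 14, 28 and 56 minus sham was -1.07, -0.87, -0.09, -0.08 and -0.05 in diabetic hearts, and 0.44, -0.07, 0.31, 0.36 and -0.01 in non-diabetic hearts. Mlycd minus sham was -1.04, -0.43, -0.41, -0.02 and 0.10 in diabetic hearts, and 0.29, -0.01, -0.04, -0.15 and -0.58 in non-diabetic hearts. For both genes the diabetic day 1 array stood furthest below its sham array. The non-diabetic day 1 array stood above its own for Mlycd and for the brighter Cpt1a probe set used here. By the second Cpt1a probe set, day 1 minus sham was -1.23 in diabetic and -0.01 in non-diabetic hearts. The diabetic day 1 array also stood apart in cell markers. Its cardiomyocyte markers summed to 43873 intensity units, the lowest of the 12 arrays, against 55087 in the non-diabetic day 1 heart. The fibroblast and brown adipocyte sums, 6689 and 5481, were also the lowest of the 12 on this array. Nearly all of the brown adipocyte sum came from Cox8b (4286) and Cidea (1193), with Ucp1, Dio2 and Elovl3 under the filter. Myh6, the alpha myosin heavy chain, read 1790 in the diabetic and 5650 in the non-diabetic heart of that day. Myh6 was lower in the diabetic heart at every other time point too, with 3619 against 6135 at sham. On the diabetic day 1 array the neutrophil markers summed to 1886, the highest of the 12, against 806 in the non-diabetic day 1 heart. The liver sum, 492, was also the highest of the 12, but 415 of it came from Ttr, and Alb, Apoa1 and Fgb were under the filter. Of the 6 liver markers only Ttr and Ahsg were higher than in the non-diabetic day 1 heart. The part of the cell make-up in the day 1 values of Cpt1a and Mlycd was not tested. The differences between the courses are those tested above, and none passed.

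Acacb was closest to a trend over the days. Its slope on log2 of the day, fitted to the 10 ligated arrays, was 0.22 ± 0.07 per doubling, with an adjusted p of 0.0798 by limma, and 9.92% of probe sets passed. The other 6 genes had slopes from -0.03 to 0.08, and 0 of 7 passed. Acacb alone of the 7 had an unadjusted p under 0.05, as had 30.2% of probe sets. The second Cpt1a probe set had a slope of 0.15 ± 0.06 with an unadjusted p of 0.0256 and a limma adjusted p of 0.113. In diabetic hearts alone the Acacb slope was 0.30 ± 0.10, and in non-diabetic hearts alone 0.13 ± 0.11. Without the day 56 arrays it was 0.16 ± 0.10, and without the day 1 arrays 0.42 ± 0.14. The early days of these slopes are those with the wider beta-actin difference, so time and RNA quality cannot be told apart in them.

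The balance between the enzymes around malonyl-CoA was also followed within arrays. Mlycd minus Acacb ranged over 1.19 to 2.52 on the log2 scale in diabetic hearts and over 0.52 to 2.51 in non-diabetic hearts, and was higher in the diabetic heart at 4 of 6 time points, by 0.10 ± 0.77 on average (SD, n = 6 pairs). Acaca minus Acacb ranged over -1.36 to 0.63 in diabetic hearts and over -0.86 to 0.52 in non-diabetic hearts, with a mean gap of -0.39 ± 0.76. Both mean gaps were smaller than their spread over the pairs, and the ranges overlapped.

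**Figure D3:**
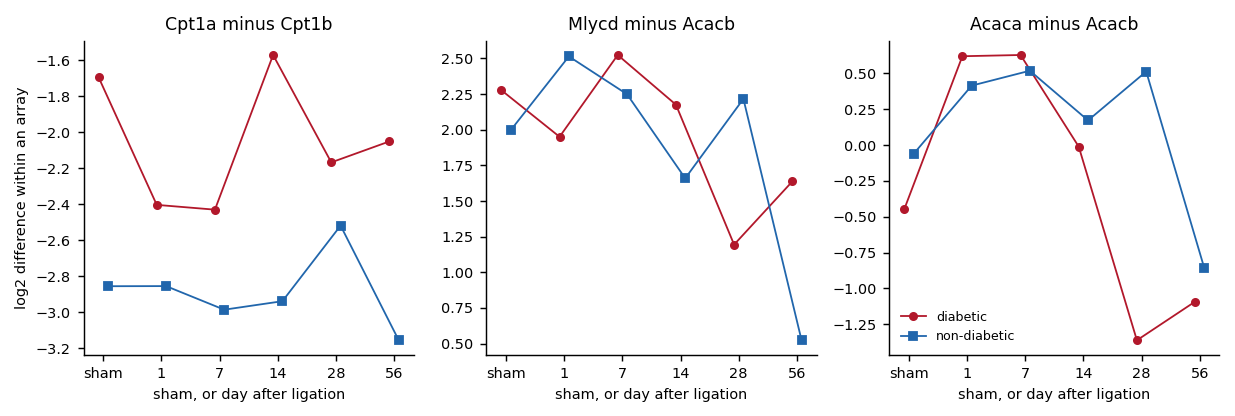
Difference between paired genes within each array on the log2 scale, from sham to day 56 at equal steps, with red circles for diabetic and blue squares for non-diabetic arrays. With the brighter Cpt1a probe set, shown here, only Cpt1a minus Cpt1b keeps the conditions apart, with diabetic values of -2.43 to -1.57 and non-diabetic values of -3.16 to -2.52.

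The 7 genes varied together to different degrees over the 12 arrays, which share the scaling of each array and the differences of condition and time. The highest Pearson correlations were 0.88 between Cpt2 and Mlycd and 0.87 between Cpt1b and Slc25a20, followed by Acacb with Slc25a20 (0.82) and with Cpt1b (0.81). Cpt1a correlated at 0.81 with Mlycd and at 0.61 with Cpt1b. Acaca correlated negatively with each of the others, from -0.55 with Slc25a20 to -0.10 with Cpt2.

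Of all other genes, the one most like Cpt1a over the 12 arrays was Plekha5 (r = 0.96), followed by Slc27a1 (0.91), a fatty acid transport protein, and Tceal5 (0.90). Slc25a20 was most like Tmem270 (0.91), Crat (0.90), the carnitine acetyltransferase, and Slc25a42 (0.90), the mitochondrial carrier of coenzyme A. Slc25a42 was also the gene most like Mlycd (0.90), before Foxo4 (0.88), a forkhead transcription factor restrained by insulin signalling, and Brd10 (0.88). Cpt2 was most like Acad10 (0.91), an acyl-CoA dehydrogenase, Vipas39 (0.88) and Cep85 (0.88). Cpt1b was most like the anion exchanger Slc4a3 (0.88), Tmem270 (0.87) and Slc26a10 (0.87). Acacb was most like LOC102555109 (0.96), Cluh (0.94), which binds messenger RNAs of mitochondrial proteins, and Pygm (0.93), the muscle glycogen phosphorylase. Acaca was most like Polr2a (0.96), the large subunit of RNA polymerase II, Lrrc14 (0.95) and Kat2a (0.91), a histone acetyltransferase. All are descriptions over 12 arrays with no test.

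The genes around the shuttle were read from 8 lists. The lists were chosen with earlier results of these data known, so their counts are descriptions and not tests. Over all probe sets 0.376% passed for diabetes, and 10.6% had an unadjusted p under 0.05 in limma. Among the enzymes and carriers of carnitine supply and other acyltransferases, 9 of 10 were tested, 0 rose and 1 fell in diabetes. The one that fell was Slc25a29, a mitochondrial carrier first described for acylcarnitine and now known for basic amino acids, at -0.87 ± 0.14 with a limma adjusted p of 0.0314, lower in 6 of 6 pairs. Crat, which moves acetyl groups between coenzyme A and carnitine, gave 0.52 ± 0.21 and did not pass, nor did the transporter Slc16a9 with -0.38 ± 0.12 or Aldh9a1, an enzyme of carnitine synthesis, with -0.33 ± 0.14. The median of the list was -0.09, and 4 of 9 had an unadjusted p under 0.05.

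For malonyl-CoA supply and use, 11 of 13 genes were tested and 0 passed for diabetes in limma, adjusted or unadjusted, with a median of -0.07. The fatty acid synthase Fasn gave -0.28 ± 0.16, the malonyl-CoA synthetase Acsf3 -0.35 ± 0.19, the fatty acid elongase Elovl5 -0.29 ± 0.21 and the 2-oxoglutarate carrier Slc25a11 -0.22 ± 0.15. Over the days after ligation 2 genes of this list fell, as did 5.97% of probe sets: Fasn with a slope of -0.21 ± 0.06 per doubling of the day (limma adjusted p = 0.0492) and Hacd1, a dehydratase of fatty acid elongation, with -0.31 ± 0.06 (limma adjusted p = 0.0192). Both began above sham. On day 1 minus sham Hacd1 rose by 1.47 ± 0.36 (limma adjusted p = 0.0339), as did 4.2% of probe sets, and Fasn gave 0.97 ± 0.27 (limma adjusted p = 0.0515). In the other lists Acsl4 (1.32 ± 0.30, limma adjusted p = 0.0271), Ppp2ca (1.17 ± 0.30, limma adjusted p = 0.0395) and 2 of the other PPAR alpha targets also rose on day 1. Bbox1, of carnitine synthesis, fell, at -0.70 ± 0.17 (limma adjusted p = 0.0348). In either direction 7.47% of probe sets passed that day. In the lists described next the slope was called higher for Prkaca and Stk11, with 3.96% of probe sets called so, and lower for Ppp2ca, Acsl4, Acsl5 and Plin2. The wider beta-actin difference of the early arrays limits all these slopes and day 1 values, in which time and RNA quality cannot be told apart.

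AMP-activated kinase phosphorylates and inhibits both acetyl-CoA carboxylases. The list of its subunits and upstream kinases also held partners of these kinases and the phosphatase subunit Ppp2ca. Of this list 13 of 14 genes were tested and 0 passed for diabetes in limma, with a median of 0.07. An unadjusted p under 0.05 was seen in 3 of the 13, against 10.6% of all probe sets. The gamma subunit Prkag2 gave 0.64 ± 0.19, higher in 6 of 6 pairs, and the beta subunit Prkab2 -0.73 ± 0.19, lower in 5 of 6 pairs, with limma adjusted p of 0.228 and 0.191. The kinase partner Stradb gave -0.34 ± 0.14 and the scaffold Cab39 0.34 ± 0.18.

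For uptake and activation of fatty acids 12 of 13 genes were tested and 0 passed in limma, with a median of 0.13. An unadjusted p under 0.05 was seen in 4 of the 12, against 10.6% of all probe sets. The transport protein Slc27a1 gave 0.77 ± 0.21 and the fatty acid translocase Cd36 0.64 ± 0.20, each higher in 5 of 6 pairs with day 1 as the exception. The acyl-CoA synthetase Acsl6 gave -0.98 ± 0.19, lower in 6 of 6 pairs, with a limma adjusted p of 0.0720. Fabp4, a fatty acid binding protein of endothelium and fat cells, gave 0.34 ± 0.15.

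Among PPAR receptors and their coactivators 14 of 16 were tested and 0 passed in limma, adjusted or unadjusted, with a median of 0.07. Ppargc1a, a coactivator of mitochondrial genes, gave 0.50 ± 0.29, with 2.20 at day 28 and -0.69 at day 1. The receptor Ppard gave -0.25 ± 0.15, the orphan receptor Esrrb -0.23 ± 0.16 and the mediator subunit Med1 0.25 ± 0.16. For SREBP and ChREBP regulation, which controls fat synthesis, 9 of 12 were tested and 0 passed in limma, with a median of -0.08. An unadjusted p under 0.05 was seen in 1 of the 9, against 10.6% of all probe sets. There the transcription factors Srebf2, Mlxipl and Mlx gave -0.35 ± 0.16, -0.23 ± 0.12 and -0.23 ± 0.16, and Insig1, which holds SREBP back in the endoplasmic reticulum, gave 0.41 ± 0.20.

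Mitochondrial beta-oxidation, the pathway the shuttle feeds, had all 16 genes tested. In diabetes 1 rose, Decr1, a reductase for unsaturated fatty acids, at 1.43 ± 0.19 with a limma adjusted p of 0.00892 and higher values in 6 of 6 pairs. At an unadjusted p of 0.05 there were 8 of 16, all higher in diabetic hearts, and the median was 0.36. Over all probe sets 0.15% rose at the adjusted threshold, and 10.6% in either direction had an unadjusted p under 0.05. The subunits of the trifunctional protein, Hadha and Hadhb, gave 0.63 ± 0.18 and 0.49 ± 0.12, and the isomerase Eci1 0.58 ± 0.19, none of which passed.

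Other targets of PPAR alpha held the clearest calls, with 12 of 16 tested and 4 that rose in diabetes, against 0.15% of all probe sets. Since this list too was chosen with earlier results known, the 4 calls describe these genes and do not test the list. These were Pdk4, the kinase that shuts down glucose oxidation, at 2.46 ± 0.36, the acyl-CoA thioesterases Acot1 at 2.45 ± 0.15 and Acot2 at 1.25 ± 0.19, and Angptl4, an inhibitor of lipoprotein lipase, at 2.73 ± 0.49. Their limma adjusted p were 0.0171 for Pdk4, 4.92e-05 for Acot1, 0.0227 for Acot2 and 0.0423 for Angptl4, each higher in 6 of 6 pairs. The median of the list was 0.64. Like Cpt1a, Pdk4, Acot1 and Acot2 had their smallest differences on day 1, at 0.56, 1.89 and 0.39, against 3.17, 2.87 and 1.56 at sham. Angptl4 had its smallest at day 28, 0.11.

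**Figure D4:**
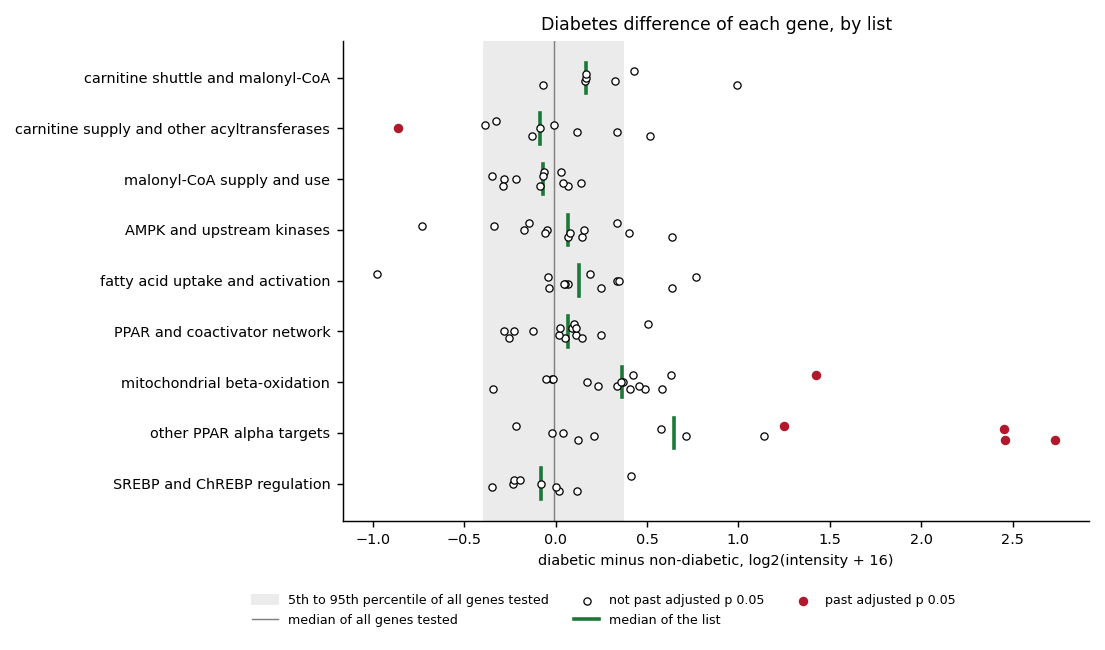
Fitted diabetes difference of each gene tested, by list, on the scale of log2(intensity + 16). Red points passed an adjusted p of 0.05, open points did not, green bars are list medians and the grey band spans the 5th to 95th percentile of the 10623 genes tested. The 7 genes of the shuttle and of malonyl-CoA turnover, in the top row, are all open points around a median of 0.17, while 4 of the other PPAR alpha targets are red.

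The tissue carried the markers of heart muscle. All 9 cardiomyocyte markers on the array passed the filter, with sums of 43873 to 54679 intensity units in diabetic and 51218 to 55393 in non-diabetic hearts. Cpt1a is also expressed by other cells, so their markers were read too. Of the 9 adipocyte markers on the array 4 passed the filter, with the fat-cell genes Adipoq, Plin1, Lep, Cidec and Pck1 under it (Adipoq at 7.05 to 13.4). Their sum was 3450 to 6496 in diabetic and 2273 to 4923 in non-diabetic hearts, most of it from Fabp4. The 9 endothelial markers summed to 3701 to 5086 in diabetic and 4384 to 6453 in non-diabetic hearts. None of the markers of any cell type passed limma for diabetes, but only 0.376% of all probe sets did, so short lists may hold none. The fitted difference was above 0 for 2 of 9 cardiomyocyte (median -0.02), 3 of 4 adipocyte (0.36) and 1 of 9 endothelial markers (-0.27). Of the 3 lymphocyte markers tested it was above 0 for 0, with a median of -0.41. The part of these cells in the Cpt1a difference was not tested.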

How the data were processed

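Total RNA pooled from 3 rats per array was hybridised to 12 Affymetrix rat arrays. The authors deposited 1 linear intensity per probe set, made with Affymetrix Expression Console and PLIER per the submitters' processing notes. Their versions and any background or array scaling step are not stated in these sources. Such intensities have no unit in molecules, background shrinks the differences of dim probe sets, and the number of arrays limits the precision. Depth does not apply.

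After 57 control probe sets were removed from 31099, log2(intensity + 16) was used, and the 18625 probe sets with a mean above the 40th percentile, 5.20, entered tests in limma 3.58.1 (R 4.3.3). The main model held time point (6 levels) and diabetes, with 5 residual degrees of freedom, trended eBayes variances and Benjamini-Hochberg adjustment over all 18625. A gene is represented by its brightest probe set. Names came from the platform annotation, where 20826 probe sets have 1 symbol, 436 several and 9780 none listed, and all 7 Entrez IDs matched RefSeq.

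Groups followed the labels. The sham tissue label speaks of an infarct; the protocol, a sham operation, was followed. No source used here names a scan or labelling batch. The members, lists and tests were chosen with earlier results of these data known, and the contrast of days 1 and 7 after the values were seen. Named genes are all 7 members, up to 4 genes per list with the smallest p for diabetes, and the 3 genes most correlated with each member. Hacd1, Myh6, Bbox1 and the other genes called for the slope were named after their values were seen. In simulations that changed 200 of 18625 probe sets, a diabetes log2 change of 1 was recovered in 81.5% and a day 1 change of 1 in 1%, of 2 in 82%. A contrast of days 1 and 7 was recovered in 0% at a change of 1 and 67% at 2. Alternatives were the offset, filter, scaling, variance model, probe set rule, left-out pairs, unpaired fit and a beta-actin covariate.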

Additional observations from a re-analysis of the deposited data

How the results depend on the processing

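For diabetes, 0 of the 7 genes passed over all arrays, and 1 of 7, Cpt1a, passed under quantile normalization (0.98, limma adjusted p 0.0465, where 0.424% of probe sets passed), without the day 1 pair, and on the 8 arrays that leave out days 1 and 7. The Cpt1a difference kept its direction under all 19 alternatives, from 0.37 in the pairs of days 1 and 7 alone to 1.31 without them, and passed in these 3. With single pairs left out its adjusted p ran from 0.0200 without day 1 to 0.318 without day 56, the pair whose age labels differ, and without the pairing by time point it was 0.161. All probe sets called for diabetes numbered 70, and 2 to 92 under the alternatives, with the 2 in the pairs of days 1 and 7 alone, which leave fewer arrays. In those pairs alone the direction turned for Cpt1b (-0.14), Cpt2 (-0.18), Slc25a20 (-0.17), Mlycd (-0.23), Acaca (0.067) and Acacb (-0.090). With the beta-actin covariate, which differed between conditions mainly in the day 28 pair, the Cpt1a difference was 0.91 (limma adjusted p 0.234) and the direction turned for Cpt1b (-0.029), Slc25a20 (-0.0039) and Acacb (-0.12), and without day 14 for Acaca (0.0057). In non-diabetic arrays alone the slope on log2 day turned for Cpt1a (-0.045), Cpt1b (-0.035), Cpt2 (-0.085), Slc25a20 (-0.030) and Mlycd (-0.13). Quantile normalization turned Cpt2 at day 7 (-0.080), Cpt1a at day 56 (0.11) and the slope of Acaca (0.0079). Equal array medians turned Cpt2 at day 7 (-0.068), averaged probe sets turned Cpt1a at day 56 (0.016), and leaving out day 1 turned the slope of the diabetes difference of Acaca (0.015). None of the turned values passed, and the cause was not tested. Quantile normalization moved the median of all probe sets by -0.18 for day 7 minus sham, where equal medians moved it by -0.11, and by 0.11 for the contrast of days 1 and 7. Signal over background limits the second Acaca probe set, which stayed under the filter.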
